A study of Homo sapiens with 9 samples.

Results

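The strands of the miR-21 hairpin, miR-21-5p and miR-21-3p, were described in the colorectal carcinoma line HCT116 and in 2 drug-resistant sublines of it. They were chosen by name as the rows hsa-miR-21-5p and hsa-miR-21-3p of the count table, and both were found among its 1198 mature miRNAs. HCT116 is an established human colorectal carcinoma line, used here as the parental control without drug selection. HCT-FU-c was derived from HCT116 by permanent exposure to rising concentrations of 5-fluorouracil (5-FU), and HCT-Oxa-c in the same way with oxaliplatin. All 3 lines were grown in medium with fetal bovine serum and antibiotics, and each gave 3 small RNA libraries from separate biological replicates, 9 in all. Each drug is represented by 1 subline, so p-values measure the spread between cultures of these lines and not between independent selections. The comparisons address whether miRNA levels differ between each resistant subline and its parental line, and between the sublines.

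A miRNA hairpin is cut into a duplex, from which 1 strand is usually loaded into an Argonaute protein and kept, while the partner strand is mostly degraded. The loaded strand pairs with target mRNAs mainly through its seed, bases 2 to 8, and lowers their translation and stability. In the miR-21 hairpin the 5p strand is the usual guide and is abundant in colorectal and many other carcinomas.

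The mature sequence of miR-21-5p, the strand on which the library composition turns, is shown with that of miR-590-5p, which has the same seed, and with those of miR-100-5p, miR-7-5p and let-7f-5p, which ranked next to it in 1 or more libraries. Sequences are from RefSeq on GRCh38.p14, are written 5′ to 3′, and have the seed (bases 2 to 8) in capitals.
hsa-miR-21-5p: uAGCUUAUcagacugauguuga
hsa-miR-590-5p: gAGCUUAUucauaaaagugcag
hsa-miR-100-5p: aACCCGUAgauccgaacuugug
hsa-miR-7-5p: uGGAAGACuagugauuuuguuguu
hsa-let-7f-5p: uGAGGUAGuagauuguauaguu
The mature miR-21-5p lies at chr17:59841273-59841294 on the plus strand, bases 8 to 29 of the 72-base MIR21 hairpin (chr17:59841266-59841337). In GENCODE 29 the hairpin is inside the protein-coding gene VMP1 (chr17:59707192-59842255, plus strand), in the only exon of the retained-intron transcript VMP1-216 and 174 bases past the end of the coding transcript VMP1-201. Mature miR-590-5p lies on the plus strand at chr7:74191213-74191234, and miR-100-5p on the minus strand at chr11:122152275-122152296. RefSeq gives miR-7-5p at chr9:83969811-83969834 (minus) and chr19:4770700-4770723 (plus), and let-7f-5p at chr9:94176353-94176374 (plus) and chrX:53557246-53557267 (minus). Of the 1198 listed miRNAs, 1059 (88.4%) matched a mature sequence by name, and miR-590-5p was the 1 other miRNA among them with the seed of miR-21-5p. Beyond the seed, 1 of the 14 bases of miR-590-5p equalled the base of miR-21-5p at the same position.

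The counts of all mature miRNAs summed to 1423526, 1414341 and 856383 for replicates 1, 2 and 3 of HCT116. For HCT-FU-c they summed to 1230774, 1487737 and 919675, and for HCT-Oxa-c to 1950307, 2207538 and 1088268. Depth was lowest in replicate 3 whichever the line. In HCT116, miR-21-5p had 790462, 807775 and 399880 counts in replicates 1, 2 and 3. The HCT-FU-c libraries held 605455, 678202 and 426612 of its counts, those of HCT-Oxa-c 1008186, 1151205 and 435119. miR-21-5p was the most abundant miRNA in all 9 libraries.

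As a share of the library, miR-21-5p took 55.5%, 57.1% and 46.7% of the counts in replicates 1, 2 and 3 of HCT116. In HCT-FU-c the share of miR-21-5p was 49.2%, 45.6% and 46.4%. In HCT-Oxa-c it was 51.7%, 52.1% and 40.0%. The share was highest in replicates 1 and 2 of HCT116 and lowest in replicate 3 of HCT-Oxa-c, and the lines overlapped through their replicate 3 libraries. Exact 95% binomial intervals were narrow beside these differences, such as 46.6% to 46.8% in HCT116 replicate 3 and 39.9% to 40.1% in HCT-Oxa-c replicate 3. The reads are PCR products and not counted molecules, so the intervals cover counting error only.

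HCT116 had a mean miR-21-5p share of 53.1% ± 5.61, HCT-FU-c of 47.1% ± 1.89 and HCT-Oxa-c of 47.9% ± 6.90 (± SD over 3 libraries). Within every replicate number both sublines were below HCT116, by a log2 ratio of only -0.01 for HCT-FU-c in replicate 3. HCT-FU-c differed from HCT116 by -6.06 percentage points (two-sided exact permutation p = 0.2, n = 3 each). HCT-Oxa-c differed from HCT116 by -5.17 percentage points (two-sided exact permutation p = 0.5, n = 3 each), and from HCT-FU-c by 0.886 points (p = 0.9). The difference between the sublines turned direction with single libraries, from -1.22 points without HCT-Oxa-c replicate 2 to 4.87 without HCT-Oxa-c replicate 3. Over the 9 permutation tests of shares and strand ratios the Benjamini-Hochberg adjusted values were 0.9 to 1, and 3 against 3 libraries cannot give a p under 0.1.

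The other strand, miR-21-3p, had 2436, 2529 and 654 counts in replicates 1, 2 and 3 of HCT116. HCT-FU-c had 1243, 2139 and 633 counts of it, HCT-Oxa-c 3024, 3300 and 864. Its share of the library was 0.171%, 0.179% and 0.0764% for HCT116, 0.101%, 0.144% and 0.0688% for HCT-FU-c, then 0.155%, 0.149% and 0.0794% for HCT-Oxa-c. In every line the replicate 3 library had the lowest share of miR-21-3p, and the 3 replicate 3 libraries lay below the other 6. HCT116 had a mean miR-21-3p share of 0.142% ± 0.0571, HCT-FU-c of 0.105% ± 0.0376 and HCT-Oxa-c of 0.128% ± 0.0422 (± SD over 3 libraries). The largest difference of the miR-21-3p share, that of HCT-FU-c from HCT116, was -0.0376 percentage points (two-sided exact permutation p = 0.3, n = 3 each). The 3p strand ranked between the 47th and the 72nd most abundant miRNA of a library.

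The miRNA that ranked next to miR-21-5p differed between libraries. It was miR-100-5p in all HCT-Oxa-c libraries and in replicates 1 and 2 of HCT116, miR-7-5p in replicates 1 and 2 of HCT-FU-c, and let-7f-5p in replicate 3 of HCT116 and of HCT-FU-c. miR-21-5p had from 5.18 (HCT-Oxa-c replicate 3) to 14.9 (HCT116 replicate 2) times the count of the next miRNA. Averaged over the 9 libraries, miR-21-5p took 49.4% of the counts. The next 9 miRNAs were miR-100-5p (4.84%), miR-7-5p (4.17%), let-7f-5p (3.54%), let-7a-5p (2.71%), miR-222-3p (2.23%), miR-10a-5p (2.01%), miR-92a-3p (1.60%), miR-30d-5p (1.54%) and let-7g-5p (1.36%). Between its lowest and highest library the share of miR-21-5p differed 1.43-fold, and the shares of these 9 miRNAs from 1.90-fold (miR-7-5p) to 5.88-fold (miR-10a-5p). These ranges are not alike, since a share near 49.4% has less room to rise than one of a few percent. Scaled to the total counts without miR-21-5p, its own range was 2.00-fold. Counted by seed, the seed of miR-21-5p held 40.0% to 57.1% of a library, and the next seed, that of the let-7 family, 5.31% to 12.2%. The counts with a matched sequence made up 94.7% to 96.3% of a library. miR-590-5p added 2 to 4 counts per library to the miR-21-5p seed, so that seed was carried by miR-21-5p. The partner strand miR-590-3p had 361 to 595 counts per library.

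Levels were compared as CPM (each count relative to its library size, the sizes being scaled by the trimmed mean of M values, TMM) and tested on the counts of the 367 miRNAs that passed a filter on low counts. Both miR-21 strands passed it. The level of miR-21-5p was 536933, 577238 and 534463 CPM in replicates 1, 2 and 3 of HCT116. It was 457770, 356530 and 508466 CPM in HCT-FU-c. In HCT-Oxa-c it was 528798, 514998 and 446715 CPM. On this scale the HCT-FU-c and HCT-Oxa-c libraries were all below those of HCT116, though narrowly for HCT-Oxa-c replicate 1 (528798 against 534463 CPM). As shares of the library the lines overlapped, so the separation depends on the scale. How many other tested miRNAs separate in this way was not counted, and nothing is drawn from it. The sublines overlapped with each other. For miR-21-3p the HCT116 libraries had 1655, 1807 and 874 CPM, those of HCT-FU-c 940, 1124 and 755 CPM, those of HCT-Oxa-c 1586, 1476 and 887 CPM. Its lines overlapped in every comparison, and replicate 3 was the lowest library of each line.

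Against HCT116, the level of miR-21-5p in HCT-FU-c was lower by a log2 difference of -0.32 (SE 0.17, 95% interval -0.70 to 0.06) and lower within 3 of 3 replicate numbers. The difference did not pass the test (edgeR quasi-likelihood F test, Benjamini-Hochberg adjusted p = 0.918). For miR-21-3p the log2 difference was -0.62 (SE 0.34, 95% interval -1.40 to 0.15), also with lower values within 3 of 3 replicate numbers (edgeR adjusted p = 0.968). No miRNA passed the edgeR test in this comparison (0 of 367, 0%), 15 had an unadjusted p under 0.05, and DESeq2 called 4. With the replicate number as a block, 20 of 367 miRNAs were called (5.45%), and miR-21-3p was 1 of them. Its blocked log2 difference was -0.57 (SE 0.15, edgeR adjusted p = 0.0266), a level 1.49-fold lower in HCT-FU-c, where the adjusted p over all alternatives ran from 0.0266 to 1.00. With replicates 1 and 2 only, without a block, 13 miRNAs were called and miR-21-3p was 1 of them. Its log2 difference was then -0.80 (edgeR adjusted p = 0.0346). That fit drops replicate 3, which was singled out after its values were seen, so its call is not independent support. miR-21-5p was not called with the block (log2 difference -0.32, edgeR adjusted p = 0.394) or with replicates 1 and 2 only, where its log2 difference was -0.51 (edgeR adjusted p = 0.0831). Its adjusted p over all alternatives ran from 0.0831 to 1.00.

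In HCT-Oxa-c against HCT116, miR-21-5p had a log2 difference of -0.15 (SE 0.17, 95% interval -0.52 to 0.23) and was lower within 3 of 3 replicate numbers (edgeR adjusted p = 0.953). miR-21-3p had a log2 difference of -0.13 (SE 0.34, 95% interval -0.91 to 0.64) and was lower within 2 of 3 (edgeR adjusted p = 1.00). The direction of the miR-21-3p difference turned with single libraries, from -0.41 without HCT116 replicate 3 to 0.15 without HCT-Oxa-c replicate 3. In this comparison 9 of 367 miRNAs were called (2.45%), and with the replicate block 54 (14.7%). Neither strand of miR-21 was called in either model.

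The sublines share the HCT116 libraries as their control and were also compared directly. In HCT-Oxa-c against HCT-FU-c the log2 difference of miR-21-5p was 0.17 (SE 0.17, 95% interval -0.21 to 0.55), with higher values within 2 of 3 replicate numbers (edgeR adjusted p = 0.699). That of miR-21-3p was 0.49 (SE 0.34, 95% interval -0.29 to 1.26), with higher values within 3 of 3 (edgeR adjusted p = 0.581). The test called 16 of 367 miRNAs (4.36%), neither strand of miR-21 among them. With the replicate block 97 were called (26.4%), and miR-21-3p was 1 of them, at a log2 difference of 0.46 (SE 0.15, edgeR adjusted p = 0.0303), or 1.37-fold higher in HCT-Oxa-c. The adjusted p of this difference ran from 0.0298 to 0.821 over the alternatives. The lowest value came from replicates 1 and 2 only, at a log2 difference of 0.64, in a fit that called 67 miRNAs. With these libraries the log2 difference of miR-21-5p was 0.43 (edgeR adjusted p = 0.0597, range over the alternatives 0.0597 to 0.989), and its share was 4.53 percentage points higher in HCT-Oxa-c. The call of miR-21-3p with the block is thus set against more than 1 in 4 tested miRNAs called in the same model. The call without replicate 3 rests on libraries chosen after the values of replicate 3 were seen.

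The ratio of the strands within a library needs no scaling. miR-21-5p had 325, 319 and 611 counts per count of miR-21-3p in replicates 1, 2 and 3 of HCT116. In HCT-FU-c the ratio was 487, 317 and 674. For HCT-Oxa-c it came to 333, 349 and 504. The replicate 3 library had the highest ratio of every line, and all 3 of them were above the other 6 libraries. HCT-FU-c replicate 1 was the highest of these 6, and the lines overlapped. Of the counts of both strands, the 3p strand made up a mean of 0.261% ± 0.0846 for HCT116, 0.223% ± 0.0845 for HCT-FU-c and 0.261% ± 0.0548 for HCT-Oxa-c (± SD over 3 libraries).

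**Figure D1:**
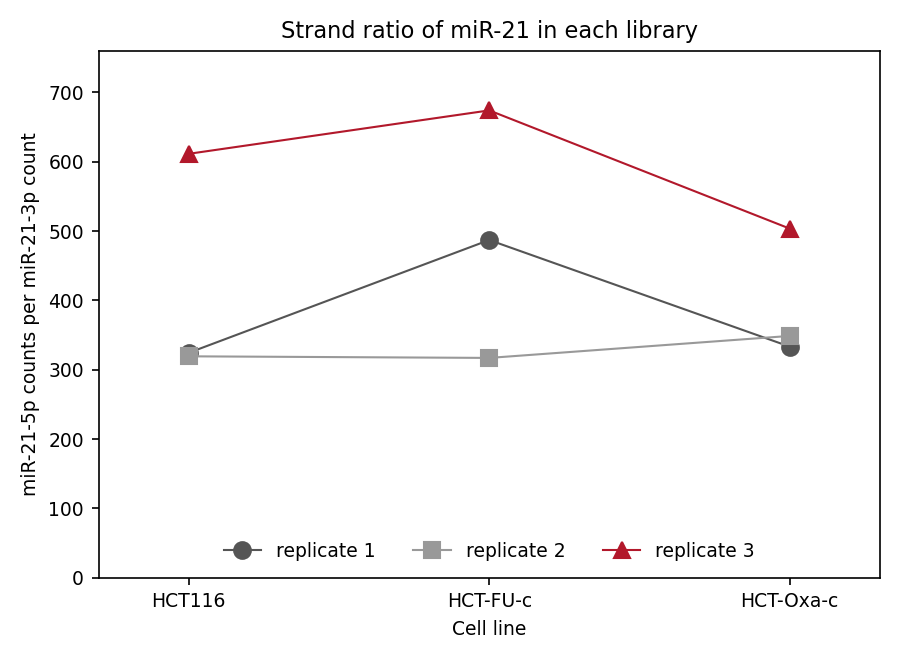
Counts of miR-21-5p per count of miR-21-3p (vertical axis) in each library of the 3 lines; lines join libraries of the same replicate number. Replicate 3 lies at 504 to 674, and replicates 1 and 2 lie at 317 to 487.

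The log2 strand ratio was compared between lines by limma over the 83 hairpins whose strands both passed the filter. For miR-21 the log2 difference in HCT-FU-c against HCT116 was 0.24 (SE 0.49, 95% interval -0.85 to 1.33, limma adjusted p = 0.978). In HCT-Oxa-c against HCT116 it was -0.04 (SE 0.49, 95% interval -1.12 to 1.05, limma adjusted p = 0.995). Between HCT-Oxa-c and HCT-FU-c it was -0.28 (SE 0.49, 95% interval -1.36 to 0.81, limma adjusted p = 0.982). Against HCT116 the direction turned with single libraries. The log2 difference of the strand ratio was -0.02 in HCT-FU-c without HCT-FU-c replicate 3, and 0.27 in HCT-Oxa-c without HCT116 replicate 3. With the replicate block the SE was 0.30, and the 95% intervals were -0.44 to 0.91 for HCT-FU-c against HCT116, -0.71 to 0.64 for HCT-Oxa-c against HCT116 and -0.95 to 0.40 between the sublines. limma called 0 of 83 strand ratios (0%) in each comparison, and so did edgeR with a strand by line term. An unadjusted limma p under 0.05 was reached by 0 strand ratios in HCT-FU-c against HCT116, 3 in HCT-Oxa-c against HCT116 and 2 between the sublines. With the replicate block limma called 1 (1.20%) in HCT-Oxa-c against HCT116, 0 in HCT-FU-c against HCT116 and 3 (3.61%) between the sublines, miR-21 not among them.

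Among the 83 hairpins, miR-21 had the most counts and the 7th largest strand asymmetry. Its mean log2 ratio over the 9 libraries was 8.71, or 417.5-fold in favour of the 5p strand, where the median size of the log2 ratio over all 83 was 3.57. The 5p strand was the more abundant in 50 hairpins and the 3p strand in 33. The SD of the log2 ratio within lines was 0.48 for miR-21, against a median of 0.80 and a range from 0.26 to 1.97, so the strand ratio of miR-21 varied less than that of most hairpins. Counting noise enters this SD and is larger where the minor strand has few counts, while miR-21-3p had 633 to 3300 per library. The part of counting noise was not tested. Of the 10 hairpins with the most counts, miR-21, miR-100, let-7a, miR-10a and miR-30d favoured the 5p strand, and miR-222, miR-221, miR-29a and miR-200b the 3p strand. The remaining 1, miR-151a, had log2 ratios from -2.33 in HCT116 replicate 3 to 0.94 in HCT-FU-c replicate 2, so its direction depended on the library. Among these 10, the log2 ratio was larger in size than that of miR-21 for miR-30d (11.78), miR-222 (-11.53), miR-29a (-9.54) and miR-100 (8.93). Ratios of this size can rest on few counts of the minor strand, as miR-222-5p had 5 to 18 counts per library. The log2 ratio of miR-30d ran from 10.64 to 14.99 among the HCT116 libraries. The rank of miR-21 makes no allowance for such low counts.

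**Figure D2:**
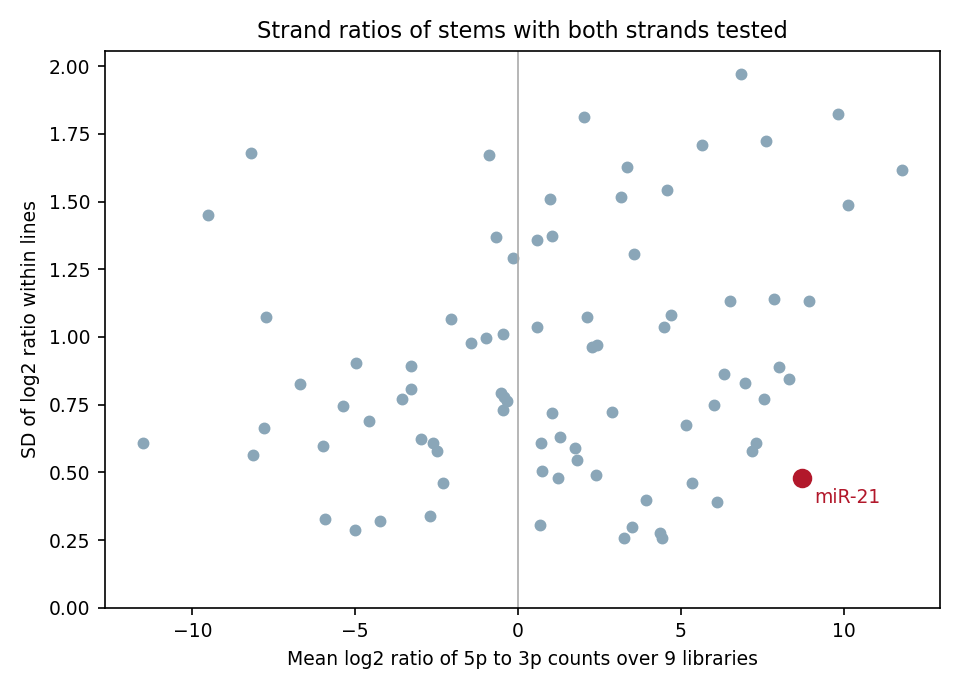
Each point is 1 of the 83 hairpins with both strands tested; the horizontal axis gives the mean log2 ratio of 5p to 3p counts over the 9 libraries and the vertical axis the SD of that log2 ratio within lines. miR-21 is marked at a ratio of 8.71 and an SD of 0.48.

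The replicate 3 libraries stood apart in miR-21-3p and in the strand ratio of miR-21, and they did so in many other miRNAs. For miR-21-5p they did not in every line, as its share in HCT-FU-c replicate 3 (46.4%) lay between those of replicates 2 (45.6%) and 1 (49.2%). Set against the mean of replicates 1 and 2 of the same line, the 5p to 3p ratio of miR-21 in replicate 3 was 1.90 times as high in HCT116, 1.68 times in HCT-FU-c and 1.48 times in HCT-Oxa-c. The miR-21-3p share was 0.437, 0.562 and 0.521 of that mean, and the miR-21-5p share 0.829, 0.979 and 0.770. These values are a description with no test, since replicate 3 was singled out after its values were seen. In 25 of the 83 hairpins the 5p to 3p ratio was above both other replicates in every line, as for miR-21, and in 19 it was below both. Of the 367 tested miRNAs, 31.3% had a CPM above both other replicates in replicate 3 of every line and 26.7% below both. The depth of the libraries moved with this pattern, and so did some markers of other cell types, among them miR-451a, miR-122-5p and miR-143-3p. Others from the same lists did not. miR-145-5p was lower in replicate 3 of every line, and miR-142-5p and miR-142-3p were in no line above both other replicates there.

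Beside the miR-21 values of replicate 3, the erythroid miR-451a had 86, 70 and 246 counts in replicate 3 of HCT116, HCT-FU-c and HCT-Oxa-c, and 0 to 2 counts in the other 6 libraries. Of the 5 blood cell markers it was the most abundant and the only one that passed the filter. In replicate 3 of HCT116, HCT-FU-c and HCT-Oxa-c, miR-142-5p had 2, 0 and 1 counts, against up to 10 in other libraries, and miR-142-3p had 1, 1 and 0, against up to 7. miR-223-3p had 4, 3 and 13 counts there, against 0 to 4 in other libraries and highest relative to depth in replicate 3 of each line, and miR-150-5p had 0 to 2 in any library. As CPM of the total library counts, the 5 blood markers, in replicate 3 mostly miR-451a, summed to 4.21, 9.19 and 110 for replicates 1, 2 and 3 of HCT116. The sums were 12.2, 10.1 and 80.5 for HCT-FU-c, then 2.05, 3.62 and 241 for HCT-Oxa-c. The liver marker miR-122-5p had 2, 0 and 45 counts for HCT116, 0, 0 and 20 for HCT-FU-c, then 7, 3 and 45 for HCT-Oxa-c. The part of these markers and of depth in the miR-21 values of replicate 3 was not tested, and which libraries shared a sequencing run was not analysed here.

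Markers of the labelled cell type were present in every library. The 5 epithelial miRNAs of the miR-200 family summed to 16960 to 31690 CPM of the total library counts, with replicate 3 the lowest of each line. The intestinal markers miR-192-5p, miR-194-5p and miR-215-5p summed to 102 to 311 CPM, also with replicate 3 the lowest of each line. Of these, miR-215-5p had only 1 to 18 counts and did not follow the sum in every line. Its replicate 3 count was the highest of HCT116 (6) and of HCT-Oxa-c (18), and the lowest of HCT-FU-c (1). The smooth muscle and fibroblast markers miR-143-3p and miR-145-5p summed to 326, 339 and 590 CPM for replicates 1, 2 and 3 of HCT116, 190, 261 and 418 CPM for HCT-FU-c, then 208, 304 and 357 CPM for HCT-Oxa-c. The sum was highest in replicate 3 of each line, and miR-143-3p was the more abundant in 6 of the 9 libraries. In replicate 3 of the 3 lines miR-143-3p had 420, 330 and 304 counts, against 80 to 295 in the other libraries. The other of the pair, miR-145-5p, had 85, 54 and 84 counts there, against 154 to 375. The part of these markers in the miR-21 values was not tested. The muscle marker miR-1-3p had 6, 0 and 4 counts in replicate 3 of HCT116, HCT-FU-c and HCT-Oxa-c, against 0 or 1 in the other libraries. The neuronal miR-124-3p had 0 to 2 counts in any library.

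Because miR-21-5p holds about as many counts as all other miRNAs together, it can set the scale on which the others are read. The counts outside miR-21-5p made up 42.9% of the library in HCT116 replicate 2 and 60.0% in HCT-Oxa-c replicate 3, a 1.40-fold range. Averaged by line, HCT116 had 46.9% of them, HCT-FU-c 52.9% and HCT-Oxa-c 52.1%. With total counts as the scale, this alone is a log2 shift of 0.18 for the other miRNAs in HCT-FU-c against HCT116, 0.15 in HCT-Oxa-c against HCT116 and -0.02 between the sublines. The measured median log2 difference of the 365 other tested miRNAs under total counts was 0.20, -0.01 and -0.27 in the same order. The part of the miR-21-5p share in these medians was not tested. Under TMM the median of the others was 0.02, -0.01 and -0.08. Under upper quartile scaling it was 0.14 in HCT-Oxa-c against HCT116, and under total counts without miR-21-5p it was -0.16 in that comparison and -0.21 between the sublines.

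The difference of miR-21-5p moved with these scales. In HCT-FU-c against HCT116 its log2 difference lay between -0.37 (total counts without miR-21-5p) and -0.17 (total counts) over 7 scalings. In HCT-Oxa-c against HCT116 it lay between -0.29 (total counts without miR-21-5p) and 0.01 (upper quartile), where the direction turned. Between the sublines it lay between 0.03 (total counts) and 0.33 (upper quartile). Taken relative to the median of the other miRNAs, the difference of miR-21-5p in HCT-FU-c against HCT116 was -0.34 under TMM, -0.37 under total counts and -0.35 under upper quartile. In HCT-Oxa-c against HCT116 the relative difference of miR-21-5p was -0.14 under TMM, -0.14 under total counts and -0.13 under upper quartile. Between the sublines it was 0.25, 0.29 and 0.27 in the same order. Subtracting the median removes most of the scaling by construction.

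For miR-21-3p the difference relative to the median of the others was -0.65 under TMM, -0.64 under total counts and -0.69 under upper quartile in HCT-FU-c against HCT116. It was -0.13, -0.14 and -0.15 in HCT-Oxa-c against HCT116, and 0.56, 0.56 and 0.60 between the sublines. Neither strand was called under any of the 7 scalings without a block. The number of called miRNAs was 7 to 12 in HCT-Oxa-c against HCT116, 0 in HCT-FU-c against HCT116 and 16 to 18 between the sublines. Of the calls in HCT-Oxa-c against HCT116, 5 were higher and 4 lower under TMM, 8 and 2 under upper quartile, 8 and 4 under total counts, and 5 and 2 under TMM without miR-21-5p. Between the sublines 13 were higher and 3 lower under TMM, and 11 and 6 under total counts.

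**Figure D3:**
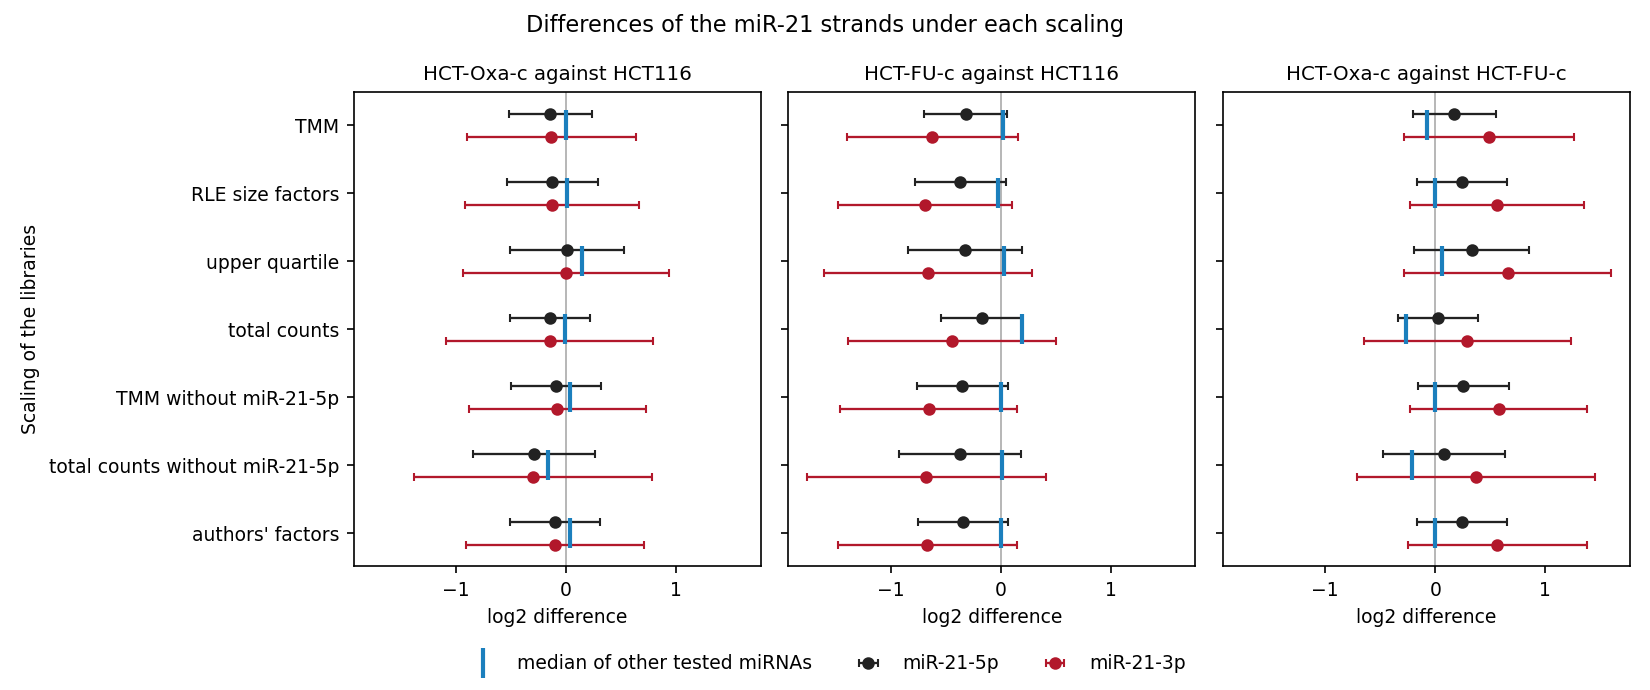
log2 differences (horizontal axes) of miR-21-5p (black) and miR-21-3p (red) with 95% intervals from edgeR in the 3 comparisons, under each of 7 scalings of the libraries; blue ticks are the median log2 difference of the 365 other tested miRNAs. Every interval includes 0, and the miR-21-5p value in HCT-Oxa-c against HCT116 turns from -0.15 under TMM to 0.01 under upper quartile.

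The factors themselves were not a mirror of the miR-21-5p share. Relative to total counts, the TMM factor of replicates 1, 2 and 3 was 1.03, 0.990 and 0.874 for HCT116, 1.08, 1.28 and 0.913 for HCT-FU-c, then 0.978, 1.01 and 0.896 for HCT-Oxa-c. Total counts without miR-21-5p gave factors of 0.882, 0.851 and 1.06 for HCT116, 1.01, 1.08 and 1.06 for HCT-FU-c, then 0.959, 0.950 and 1.19 for HCT-Oxa-c. Replicate 3 had the lowest TMM factor of each line, although in HCT116 and HCT-Oxa-c it was the library with most of its counts outside miR-21-5p. TMM leaves the most abundant miRNAs out of its mean, and miR-21-5p was left out for its abundance in 8 of 8 libraries compared with the reference library. Computing TMM without miR-21-5p moved a factor by up to 0.16 on the log2 scale, in HCT-Oxa-c replicate 2, because the reference library changed from HCT116 replicate 2 to HCT116 replicate 3. With the reference library kept, the largest move was 0.02. The level of miR-21-5p differed between its lowest and highest library 1.43-fold under total counts, 1.62-fold under TMM, 1.76-fold under RLE size factors and 2.00-fold under total counts without miR-21-5p.

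**Figure D4:**
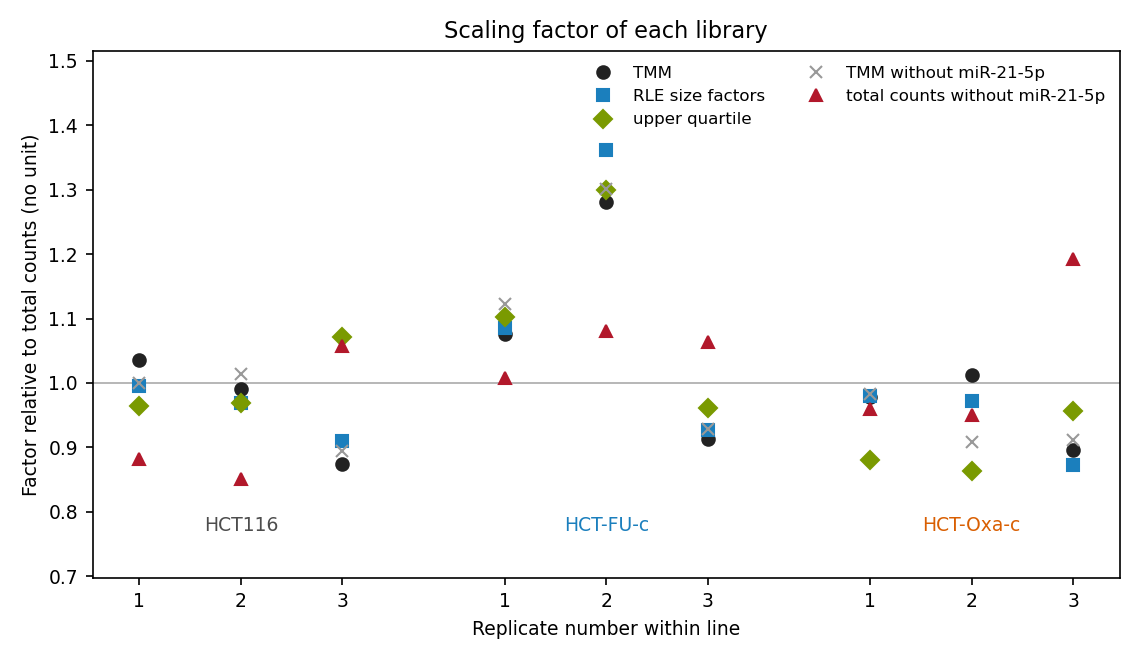
Scaling factor of each library relative to total counts (vertical axis, geometric mean of 1 over the 9 libraries) under 5 scalings, by replicate number within line. In replicate 3 of each line the TMM factor is 0.874 to 0.913, while the factor from total counts without miR-21-5p is 1.06 to 1.19.

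Over the 9 libraries the TMM log2 CPM of miR-21-5p had a range of 0.70, the 27th smallest of the 367 tested, where the median range was 1.85. The range of miR-21-3p was 1.26, the 96th smallest. The tested miRNAs with profiles most like that of miR-21-5p, by the mean absolute difference of centred log2 CPM over 9 libraries, were miR-148b-3p (0.11), miR-9-5p (0.13), miR-660-5p (0.13), miR-340-5p (0.15) and miR-191-3p (0.16), where the median over 366 miRNAs was 0.52. For miR-21-3p they were miR-16-5p (0.21), miR-145-5p (0.21), miR-9-3p (0.22), miR-15b-5p (0.24) and miR-450b-5p (0.28), with a median of 0.63. The strands were not among the closest of each other. At a mean difference of 0.38, miR-21-3p was the 106th closest to miR-21-5p, and miR-21-5p the 44th closest to miR-21-3p.

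MIR21 is transcribed under AP-1 and STAT3, and 8 strands of other hairpins known as targets of these factors were set beside it. Of these, 7 were listed and 6 tested. With line as the only factor 0 of 6 were called in any comparison, beside 0% of all tested miRNAs in HCT-FU-c against HCT116, 2.45% in HCT-Oxa-c against HCT116 and 4.36% between the sublines, so few that a count of 0 is uninformative. Their median log2 difference was -0.07 in HCT-FU-c against HCT116, 0.00 in HCT-Oxa-c against HCT116 and -0.11 between the sublines, beside medians of 0.02, -0.01 and -0.07 over all tested miRNAs. The most abundant of them, miR-222-3p, had 24115 to 42151 counts per library, and miR-155-5p had 0 to 3. The largest log2 difference among them was that of miR-181b-5p between the sublines, 1.78 (edgeR adjusted p = 0.169).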

How the data were processed

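Small RNA libraries of HCT116, HCT-FU-c and HCT-Oxa-c (3 biological replicates each) were prepared by the authors with a NEXTflex kit and sequenced on a MiSeq. The authors deposited raw counts per mature miRNA, beside a normalized signal. The deposited signal equalled the count divided by 1 DESeq2 size factor per library, to within 0.00634% for counts of at least 1000, and served only as a scaling. The submitters' processing notes name CASAVA 1.8, Bowtie 1.1.2, DESeq2 and build GRCh38.p7, and the counting tool is not given in the sources used here. A share is thus a share of ligated, amplified and counted reads.

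Counts were tested with edgeR 4.0.16 (quasi-likelihood F test, TMM, R 4.3.3) in 1 model of all 9 libraries with line as the only factor. filterByExpr (minimum count 10, minimum total 15) kept 367 of 1198 miRNAs. SEs were derived from the F statistic. Strand ratios, log2 of counts plus 0.5, were tested with limma 3.58.1 over 83 hairpins. Adjusted p-values are Benjamini-Hochberg, with calls under 0.05. Shares were tested by exact permutation. Profiles used log2 of CPM plus 0.5. The models were also run on simulated data, and no result given here rests on that run. Alternatives covered scaling, filter, pseudocount, DESeq2 1.42.0, the libraries included and the replicate block. The scaling by the authors' factors was chosen after seeing the data. Replicates of 1 line differed by more than counting error alone (chi-square per degree of freedom 11.6 to 461). Reads are PCR products and the replicates are separate cultures, so no conclusion is drawn from that value.

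Replicate numbers come from the sample labels. The deviations of libraries from their line means correlated at 0.37 to 0.73 across miRNAs for the same number. The number was used as a block in alternative fits and for differences within a number, while the main tests had line as the only factor. Replicates 1 and 2 correlated as highly with each other (0.37 to 0.60), and replicate 3 with either at -0.66 to -0.46, so the numbers mainly separate replicate 3. Deviations within a line cancel out, so part of this contrast follows by construction.

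The text names both members, the strands of miR-590, which shares the miR-21-5p seed, the 10 with the highest mean share, the AP-1 and STAT3 list, the cell type markers, the 5 closest profiles of each strand and the 10 hairpins with most counts. The members and lists were chosen with earlier results of these data known. A test of replicate 3 against the other replicates was run, but is not used here because replicate 3 was picked out after its values were seen. Positions come from RefSeq and GENCODE 29. The libraries measure relative composition, not molecules per cell, and adapter ligation differs between strands, so a strand ratio is not a molar ratio. Effects of drug selection and of long separate culture cannot be told apart. Figures were drawn with matplotlib 3.10.9 on Python 3.11.15.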

Additional observations from a re-analysis of the deposited data

How the results depend on the processing

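Over 18 results and their alternatives, 275 values kept their direction and side of the threshold or, for counts of calls, stayed within 1.5 times, 28 counts moved further, 4 tests newly passed and 11 values reversed. The miR-21-5p share was compared by direction only. Leaving out a library outside a comparison could not change its share or strand ratio difference, so the 275 include values that were fixed in advance. miR-21-5p was never called. miR-21-3p was newly called in HCT-FU-c against HCT116 with the replicate block (log2 -0.57) and with replicates 1 and 2 only (-0.80), and between the sublines with the replicate block (0.46) and with replicates 1 and 2 only (0.64). The block changed no other call of miR-21. Called miRNAs moved from 9 in HCT-Oxa-c against HCT116 to 54 with the replicate block, 43 with replicates 1 and 2 only, 23 with DESeq2, 16 with no filter beyond 1 count and 4 with at least 10 counts in every library. With 1 library left out they were 4 at the lowest (HCT116 replicate 2 out) and 12 at the highest (HCT116 replicate 3 out), and 5 without HCT116 replicate 1, HCT-Oxa-c replicate 2 or HCT-Oxa-c replicate 3. In HCT-FU-c against HCT116 they moved from 0 to 20 with the replicate block, 13 with replicates 1 and 2 only, 4 with DESeq2, and 1 both with no filter beyond 1 count and with at least 10 counts in every library. Between the sublines they moved from 16 to 97 with the replicate block, 67 with replicates 1 and 2 only, 43 with DESeq2 and 9 with at least 10 counts in every library. With 1 library left out they were 6 at the lowest (HCT-FU-c replicate 1 or 2 out) and 23 at the highest (HCT-FU-c replicate 3 out), with 7, 8, 9 and 10 without HCT-Oxa-c replicate 2, HCT-Oxa-c replicate 3, HCT-Oxa-c replicate 1 and HCT116 replicate 1. Called strand ratios moved from 0 in HCT-Oxa-c against HCT116 to 1 with the replicate block and 1 with replicates 1 and 2 only, and between the sublines from 0 to 3 and 5. The miR-21-5p level in HCT-Oxa-c against HCT116 reversed to 0.00624 under upper quartile, where the median of the other miRNAs rose too. With 1 library left out, the miR-21-3p level in that comparison ranged from -0.41 (without HCT116 replicate 3) to 0.15 (without HCT-Oxa-c replicate 3), and was above 0 also without HCT116 replicate 1 (0.01) or HCT116 replicate 2 (0.11). The strand ratio of miR-21 in that comparison ranged from -0.23 (without HCT-Oxa-c replicate 3) to 0.27 (without HCT116 replicate 3), was above 0 also without HCT-Oxa-c replicate 1 (0.07) or HCT-Oxa-c replicate 2 (0.04), and was 0.0832 with replicates 1 and 2 only. In HCT-FU-c against HCT116 the strand ratio was lowest at -0.0207 when HCT-FU-c replicate 3 was left out and highest at 0.55 when HCT116 replicate 3 was. Between the sublines the strand ratio was -0.56 (HCT-FU-c replicate 2 out) to -0.02 (HCT-FU-c replicate 3 out), and the miR-21-3p level 0.41 (HCT-Oxa-c replicate 1 out) to 0.77 (HCT-Oxa-c replicate 3 out). The difference of the miR-21-5p share between the sublines ranged from -1.22 percentage points (without HCT-Oxa-c replicate 2) to 4.87 (without HCT-Oxa-c replicate 3), and was -0.99 without HCT-Oxa-c replicate 1. With 1 library left out, that difference against HCT116 was -1.19 (HCT-Oxa-c replicate 3 out) to -8.38 (HCT116 replicate 3 out) in HCT-Oxa-c, and -4.06 (HCT116 replicate 2 out) to -9.27 (HCT116 replicate 3 out) in HCT-FU-c. The log2 difference of the miR-21-5p level was then -0.19 (HCT116 replicate 3 out) to -0.01 (HCT-Oxa-c replicate 3 out) for HCT-Oxa-c and HCT116, -0.47 (HCT-FU-c replicate 3 out) to -0.18 (HCT-FU-c replicate 2 out) for HCT-FU-c and HCT116, and 0.02 (HCT-FU-c replicate 2 out) to 0.40 (HCT-FU-c replicate 3 out) between the sublines. The causes of these changes were not tested.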
